A study of Mus musculus with 6 samples.

Results

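The transcription factor p53 (gene Trp53) and 9 of its target genes, 10 genes in all, were followed in EpiLCs, cells of formative pluripotency obtained from naïve mESCs. The 10 genes were picked by name, by matching the Ensembl identifiers of the 55416 genes counted to GENCODE mouse gene symbols, and the question was whether an Oct6 KO clone with shifts along whole chromosomes shows p53 activity. All 10 were among the 15746 genes that passed a filter on low counts.

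RNA-seq was performed on 3 WT and 3 Oct6 KO cultures, each differentiated for 48 h with 1% KSR, bFGF and Activin A on fibronectin. WT EpiLCs came from the parental mouse line 46C, which carries a GFP reporter of the neural gene Sox1, and KO EpiLCs from a CRISPR/Cas9 clone of that line with a homozygous insertion of a base in the coding sequence of Oct6 (official symbol Pou3f1). Since the KO line is 1 clone, the loss of Oct6 and any other feature of the clone cannot be told apart. The WT libraries held 13202494, 10995505 and 14680930 counts and the KO libraries 12468807, 13332588 and 13213843, and levels are given as CPM (edgeR's TMM-scaled counts relative to library size). The values of a group are always listed in the order of replicates 1, 2 and 3.

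Oct6 itself was counted at 161, 143 and 122 CPM in the WT libraries against 127, 141 and 128 CPM in the KO libraries. The ranges overlapped, and counts per gene do not show an inserted base, so the level neither bears out nor contradicts the label. All of 7 epiblast markers were counted above 1 CPM in both groups. Of these, 3 were called higher in KO and none lower, against 11.8% of all genes tested called higher. They were Otx2, Fgf5 and Sox2, with log2 fold changes (KO minus WT) of 0.92, 0.65 and 0.42. Pou5f1 (Oct4) was the most abundant per length. It had 924, 940 and 829 CPM in the WT libraries against 785, 825 and 751 CPM in the KO libraries. Pou5f1 was not called, although each KO library lay below each WT library, as for 17.1% of all genes. The median log2 fold change (KO minus WT) was 0.55 over 471 genes tested on chromosome 16 and −0.40 over 773 genes on chromosome 6, against 0.00 over all genes tested. No member lies on either of them: Phlda3, Btg2 and Mdm4 are on chromosome 1, Trp53 and Ccng1 on chromosome 11, and the others on chromosomes 3, 4, 7, 10 and 17, whose medians ran from −0.03 to 0.03 together with those of chromosomes 1 and 11.

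p53 is a transcription factor that is held at a low protein level by the ubiquitin ligase Mdm2 and its partner Mdm4, and that accumulates when DNA is damaged or chromosomes are missegregated. It then binds a palindromic site, made of a pair of half-sites, near genes that stop the cell cycle, trigger cell death, repair DNA or limit p53 itself. Its activity is regulated largely at the level of the protein, and mESCs are known for abundant p53 without a firm G1 arrest after damage, so the mRNA of the factor and the mRNA of its targets are separate readouts.

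The p53 consensus site, 20 bases long, was searched on both strands from 5000 bases before to 5000 bases after the start of the canonical transcript of each gene, with its 4 core C and G letters required and up to 2 mismatches elsewhere. It was present for 3 of the 10 members, Ccng1, Cdkn1a and Zmat3, and for 10.8% of the 15685 genes searched. These sites are shown because they lie at members that were higher (Ccng1), lower (Cdkn1a) and not called (Zmat3) in KO EpiLCs. They are given 5′ to 3′ on the strand of the gene from GRCm39, with the 20 bases of the match in capitals and 5 bases on each side in lower case. The coordinates are those of the capitals.
Ccng1, intron, chr11:40645763-40645782, minus strand, centre 366 bases after the start, 1 mismatch: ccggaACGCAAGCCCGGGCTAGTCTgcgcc
Ccng1, upstream of the annotated gene, chr11:40646289-40646308, minus strand, centre at −160 from the start, 1 mismatch: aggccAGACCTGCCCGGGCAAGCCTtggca
Cdkn1a, upstream of the annotated gene, chr17:29309902-29309921, plus strand, centre at −2827 from the start, 1 mismatch: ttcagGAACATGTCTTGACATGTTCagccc
Zmat3, in an exon of at least 1 annotated transcript, chr3:32418480-32418499, minus strand, centre 1419 bases after the start, 0 mismatches: gtgagAAACAAGCCCAGGCATGTCTtggga
Zmat3, upstream of the annotated gene, chr3:32424300-32424319, minus strand, centre at −4401 from the start, 1 mismatch: ttggaGAGCAAGTCTGGGCTTGTTAgttta
In a shorter window, from 250 bases before to 50 after any annotated start, the site was present for Ccng1, Cdkn1a and Mdm4 and for 1.29% of 15694 genes. A match describes the letters of a window and does not show binding, and the absence of a match says only that these letters are not in the window.

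In KO EpiLCs the inhibitors Mdm2 and Mdm4, the cyclin gene Ccng1 and the cell death gene Trp53inp1 were higher, by 1.20 to 1.36 times. Ccng1 is 1 of the 3 members listed for arrest, and the other 2, Cdkn1a and Btg2, were lower, at 0.502 and 0.747 of the WT level. Trp53, Phlda3, Aen and Zmat3 did not pass the test. The members moved in both directions: 6 of 10 were called at an adjusted p below 0.1, of which 4 were higher and 2 lower. Over all genes tested, 24.3% were called, 11.8% higher and 12.5% lower, and among the 9860 genes with an average log2 CPM of at least 3, which all members reach, 26.7% were called. Without KO replicate 1 the count of members called fell to 3, 1 higher and 2 lower, and the share over all genes to 18.9%. The 3 KO libraries lay above the 3 WT libraries for 4 members, against 16.6% of all genes, and below them for 1 member, against 17.1%. These are bulk libraries, in which fewer cells with a transcript and less RNA per cell cannot be told apart.

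**Figure D1:**
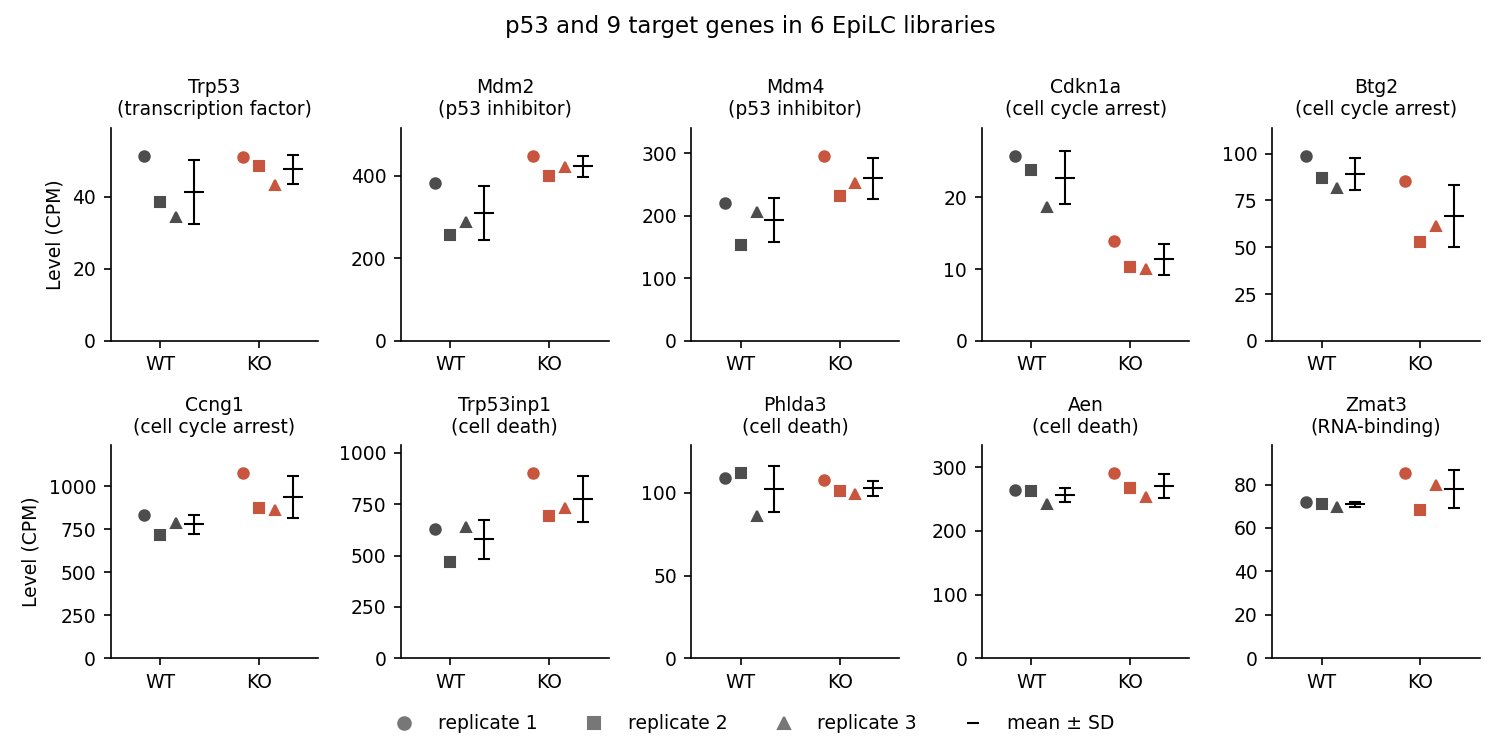
Level in CPM (vertical axes, from 0) of the 10 members in each WT and KO library, with the replicate number as the symbol and the mean ± SD over 3 libraries beside the points. Cdkn1a is lower in every KO library than in any WT library, whereas Mdm2, Mdm4, Ccng1 and Trp53inp1 are higher in every KO library.

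Trp53 (ENSMUSG00000059552.14, chromosome 11, 69469669 to 69482701) had 51.3, 38.5 and 34.2 CPM in the WT libraries against 50.9, 48.6 and 43.1 CPM in the KO libraries. WT replicate 1 was the highest of the 6 libraries, and the groups overlapped. The log2 fold change was 0.20, with a 95% interval from −0.08 to 0.49 and an adjusted p of 0.352, so a change of the factor's mRNA was not called. Without WT replicate 1 it was 0.39 with an adjusted p of 0.0428, in a range of adjusted p from 0.0428 to 0.767 over 13 alternatives. Trp53 shares 263 of its 7379 exon bases with Wrap53 on the opposite strand, and without a statement on the use of the strand in counting, reads of that stretch cannot be told apart.

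The inhibitors were both higher in KO EpiLCs. Mdm2 (ENSMUSG00000020184.16, chromosome 10, 117524780 to 117546730), the ubiquitin ligase that marks p53 for degradation and is itself a p53 target, had 383, 257 and 289 CPM in the WT libraries against 449, 399 and 421 CPM in the KO libraries. Each KO library lay above each WT library, although the nearest values, 383 and 399, were close. On the log2 scale the change was 0.45 (standard error 0.12, with an adjusted p of 0.0135), and Mdm2 was called under each of the 13 alternatives, with log2 fold changes from 0.32 to 0.63.

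Mdm4 (ENSMUSG00000054387.14, chromosome 1, 132887222 to 132958299), the partner of Mdm2 that covers the activation domain of p53, had 221, 153 and 206 CPM in the WT libraries against 296, 232 and 252 CPM in the KO libraries. WT replicate 2 was the lowest library and the groups did not overlap. For Mdm4 the estimate was 0.43 on the log2 scale (standard error 0.13, with an adjusted p of 0.0208). It fell to 0.28 without WT replicate 2 and to 0.32 without KO replicate 1, with adjusted p of 0.105 and 0.137, in a range from 0.000279 to 0.137 over the alternatives.

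Of the members listed for cell cycle arrest, Cdkn1a and Btg2 were lower and Ccng1 was higher. Cdkn1a (ENSMUSG00000023067.15, chromosome 17, 29309936 to 29319701) encodes p21, the inhibitor of cyclin-dependent kinases through which p53 arrests cells in G1. It was counted 346, 261 and 277 times in the WT and 172, 134 and 133 times in the KO libraries, which is 25.8, 23.8 and 18.7 CPM against 13.9, 10.3 and 10 CPM. The KO libraries were all below the WT libraries, with KO replicate 1 the nearest to them.

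The means of Cdkn1a were 22.8 ± 3.65 CPM in WT and 11.4 ± 2.18 CPM in KO EpiLCs (SD, n = 3 libraries each). Its log2 fold change of −0.995 (standard error 0.17, 95% interval from −1.35 to −0.64, adjusted p = 0.000322) was the largest in size among the members and lay just inside the limit of 1 that 6.21% of all genes passed together with an adjusted p below 0.1. It was called under each of the 13 alternatives, with values from −1.16 to −0.90, of which 4 reached 1 in size. Dino, an annotated transcript on the opposite strand that shares 504 exon bases with Cdkn1a, had 2 counts in the 6 libraries together.

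Btg2 (ENSMUSG00000020423.7, chromosome 1, 134002908 to 134015033), an antiproliferative gene and immediate early gene, had 98.8, 86.7 and 81.7 CPM in the WT libraries against 85.2, 53 and 61.5 CPM in the KO libraries. KO replicate 1 lay within the WT range, so the groups overlapped, but each KO library was lower than the WT library with the same number. The drop of Btg2 was −0.42 on the log2 scale (standard error 0.14, with an adjusted p of 0.0389). It was −0.34, −0.28 and −0.37 without WT replicate 1, KO replicate 2 and KO replicate 3, with adjusted p of 0.137, 0.210 and 0.158, and −0.64 without KO replicate 1, in a range of adjusted p from 0.00137 to 0.210.

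Ccng1 (ENSMUSG00000020326.8, chromosome 11, 40639377 to 40646148), which encodes cyclin G1 and carries the pair of sites printed above, had 832, 719 and 784 CPM in the WT libraries against 1077, 876 and 859 CPM in the KO libraries. The groups did not overlap, and KO replicate 1 stood above the other KO libraries. The rise was 0.27 on the log2 scale (standard error 0.11, with an adjusted p of 0.0861), which makes it the smallest called change among the members. It was not called with library totals alone (0.24, adjusted p = 0.118) or when WT replicate 2 (0.21, 0.233), WT replicate 3 (0.27, 0.134) or KO replicate 1 (0.15, 0.432) was left out, with adjusted p from 0.0114 to 0.432 over the alternatives. Ccng1 shares 114 exon bases with Nudcd2 on the opposite strand.

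Among the members tied to cell death, Trp53inp1 (ENSMUSG00000028211.12, chromosome 4, 11156412 to 11175230), a nuclear protein that assists p53 in stress, had 629, 470 and 638 CPM in the WT libraries against 902, 695 and 731 CPM in the KO libraries. The groups did not overlap, with WT replicate 2 the lowest and KO replicate 1 the highest. Trp53inp1 rose by 0.42 on the log2 scale (standard error 0.12, with an adjusted p of 0.0199). Without KO replicate 1 it was 0.30 with an adjusted p of 0.150, the highest of a range that started at 0.000219.

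Phlda3 (ENSMUSG00000041801.6, chromosome 1, 135693809 to 135697686), an inhibitor of Akt, had 109, 112 and 86.2 CPM in the WT libraries against 108, 101 and 99.2 CPM in the KO libraries. The groups overlapped throughout, with WT replicate 3 the lowest library. Its log2 fold change was 0.00 with a 95% interval from −0.23 to 0.23 (adjusted p = 0.993), and its sign was negative under 4 of the 13 alternatives, library totals alone among them.

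Aen (ENSMUSG00000030609.19, chromosome 7, 78545602 to 78560957), an exonuclease that takes part in apoptosis, had 264, 262 and 243 CPM in the WT libraries against 291, 268 and 253 CPM in the KO libraries. The groups overlapped and the 95% interval of the log2 fold change ran from −0.12 to 0.28 (estimate 0.08, adjusted p = 0.647). The estimate was 0.02 without KO replicate 1 and 0.13 without KO replicate 3, the ends of its range.

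Zmat3 (ENSMUSG00000027663.13, chromosome 3, 32388941 to 32420163), a zinc finger protein that binds RNA and carries the site without mismatches, had 71.9, 71.0 and 69.6 CPM in the WT libraries against 85.3, 68.2 and 80.0 CPM in the KO libraries. The WT libraries lay close together and KO replicate 2 fell below them, so the groups overlapped. For Zmat3 the log2 fold change was 0.14, with a 95% interval from −0.08 to 0.36 and an adjusted p of 0.422, and it ran from 0.06 without KO replicate 1 to 0.22 without KO replicate 2.

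**Figure D2:**
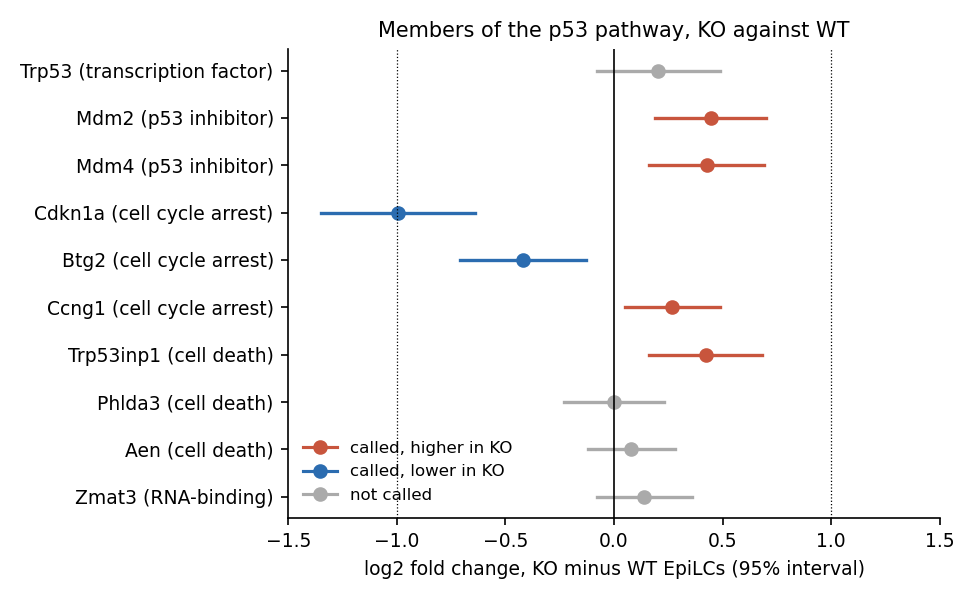
Log2 fold change, KO minus WT (horizontal axis, dotted lines at −1 and 1), of each member with its 95% interval, coloured by the call at an adjusted p below 0.1. Mdm2, Mdm4, Ccng1 and Trp53inp1 lie to the right of 0, with Ccng1 not called with library totals alone, and Cdkn1a and Btg2 to the left, Cdkn1a at −0.995.

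Levels of different genes were compared per kb of annotated exon. The exons of all annotated transcripts of a gene were merged, from 2588 bases for Phlda3 to 20386 for Mdm4. The order of the genes therefore depends on the annotation. In WT EpiLCs Ccng1 had the highest mean level, 177 ± 12.8 CPM per kb, followed by Trp53inp1 with 78.8 ± 12.9 CPM per kb. Mdm2 and Phlda3 came next at 40.2 ± 8.50 and 39.7 ± 5.53 CPM per kb, levels that differed by less than their SDs. Below Aen (22.6 CPM per kb), Btg2 (14.2 ± 1.40) stood above Mdm4 (9.48 ± 1.74) in WT, whereas in KO EpiLCs Mdm4 had the higher mean, 12.8 ± 1.59 against 10.6 ± 2.67 CPM per kb, a difference above the SD of Mdm4 and below that of Btg2. Zmat3 and Trp53, at 6.19 and 5.60 CPM per kb in WT, differed by less than the SD of Trp53, 1.21. Cdkn1a had the lowest level of the members in both groups, 3.77 ± 0.604 CPM per kb in WT and 1.89 ± 0.361 in KO.

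**Figure D3:**
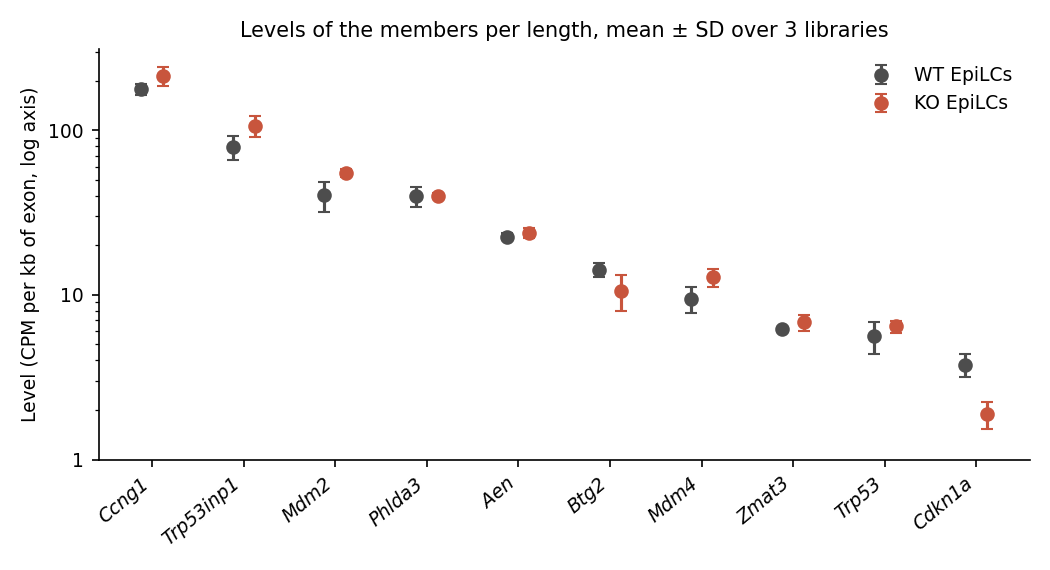
Mean level ± SD over 3 libraries of each member in CPM per kb of exon (logarithmic vertical axis) in WT and KO EpiLCs, ordered by the WT mean. The levels span from 177 for Ccng1 to 3.77 for Cdkn1a in WT, and Btg2 and Mdm4 exchange places between the groups.

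Other genes, listed from general knowledge as direct targets of p53, moved in both directions as well. Their control by p53 in these cells was not tested. Of 35 such genes, all of them tested, 11 were called (31.4%), of which 7 were higher (20.0%) and 4 lower (11.4%), and their median log2 fold change was 0.13 against 0.00 over all genes. Over all genes tested the same shares were 24.3%, 11.8% and 12.5%, and nothing particular to the list is read from the difference. With the replicate number as a block 18 were called, 11 higher and 7 lower, against 30.3% of all genes in that fit, and without KO replicate 1 only 7, of which 3 were higher, against 18.9% of all genes. Of the 32 targets outside chromosomes 6 and 16, 7 were higher and 2 lower.

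The targets known for cell cycle arrest included the largest changes of the list. Of 6 genes, 2 were higher and 3 lower, against 11.8% and 12.5% of all genes tested. Without KO replicate 1 none was higher and 3 were lower, against 9.05% and 9.87% of all genes. Sfn, which encodes 14-3-3 sigma, a protein that holds cells in G2, had 38.4, 27.6 and 26.8 CPM in the WT libraries against 20.4, 11.8 and 16.5 CPM in the KO libraries, without overlap. On the log2 scale it changed by −0.93 (standard error 0.18, with an adjusted p of 0.00102). Gadd45a, a growth arrest gene induced by DNA damage, had 70.2, 75.8 and 84.9 CPM in the WT libraries against 39, 49.8 and 56.0 CPM in the KO libraries, also without overlap. Its log2 fold change was −0.67 (adjusted p = 0.000774). Gadd45a lies on chromosome 6 and differed by −0.27 from the median there, −0.40. The part of the chromosome in this change was not tested. The kinase gene Plk3 was lower as well, with 41.1, 25.9 and 27.7 CPM in the WT libraries against 23.8, 21.1 and 20.8 CPM in the KO libraries. WT replicate 1 stood apart, and the log2 fold change of −0.53 (adjusted p = 0.0223) became −0.30 without it (0.182, in a range from 0.00238 to 0.182).

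In the opposite direction, Ptprv, a receptor tyrosine phosphatase gene, had 19.3, 12.1 and 13.5 CPM in the WT libraries against 29.4, 20.5 and 20.3 CPM in the KO libraries. The groups did not overlap, and the log2 fold change of 0.64 (adjusted p = 0.0172) was 0.44 without KO replicate 1 (0.138, in a range from 0.000383 to 0.138). The kinase gene Plk2 had 140, 122 and 126 CPM in the WT libraries against 209, 146 and 161 CPM in the KO libraries. KO replicate 1 was again the highest library, and the log2 fold change of 0.41 (adjusted p = 0.0200) was 0.24 without it (0.191, in a range from 0.00121 to 0.191).

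Among 11 targets tied to cell death, 2 were higher and none lower in the main fit, against 11.8% and 12.5% of all genes tested. An unadjusted p below 0.05 was found for 4 of the 11, against 4686 of all 15746 genes tested. The replicate block gave 3 higher, with Pidd1 added (adjusted p = 0.0742), and 2 lower, Perp (0.0408) and Tnfrsf10b (0.0874), whose adjusted p over the alternatives reached 0.362, 0.912 and 0.402. In that fit 15% of all genes were called higher and 15.3% lower. Outside the block, Pidd1 was also called without WT replicate 1 (0.0795), Perp without a filter (0.0846) and Tnfrsf10b without WT replicate 3 (0.0337). Eda2r, a receptor of the TNF receptor family, had 182, 186 and 193 CPM in the WT libraries against 271, 252 and 234 CPM in the KO libraries, without overlap. It rose by 0.43 on the log2 scale (standard error 0.095, with an adjusted p of 0.00292) and was called under all 13 alternatives. The apoptosome gene Apaf1, at 0.34 (adjusted p = 0.0280), was not called without WT replicate 2 (0.109) or KO replicate 1 (0.170), in a range from 0.00366 to 0.170. The BH3-only genes Bbc3 (Puma) and Pmaip1 (Noxa) and the pore-forming Bax, which carry the p53 death response, had log2 fold changes of −0.03, 0.04 and 0.11 with adjusted p of 0.912, 0.864 and 0.527, and the sign of Bbc3 and Pmaip1 changed on leaving out some libraries.

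The 6 repair targets included the polymerase gene Polk, with 45.4, 31.8 and 39.7 CPM in the WT libraries against 61.2, 52.1 and 51.6 CPM in the KO libraries. The groups did not overlap, and the log2 fold change was 0.49 (adjusted p = 0.00998). Polk shares 94 exon bases with Cert1 on the opposite strand. Xpc, a damage sensor of nucleotide excision repair, was lower, from 45.7, 53.1 and 50.2 CPM in the WT libraries to 30.4, 35.7 and 31.5 CPM in the KO libraries (−0.61 on the log2 scale, adjusted p = 0.000848). Like Gadd45a it lies on chromosome 6, and it differed from that chromosome's median by −0.21.

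Of the 6 metabolic targets, the stress sensors Sesn1 and Sesn2 were higher, by 0.39 and 0.31 on the log2 scale (adjusted p = 0.0242 and 0.0658). Sesn1, which shares 548 exon bases with Cep57l1 on the opposite strand, was not called without WT replicate 1 (0.111, in a range from 0.00917 to 0.111), and Sesn2 was not called under 5 alternatives, library totals alone (0.108) among them, in a range from 0.00975 to 0.240. Tigar, named here after its values were seen, had 59.3, 58.4 and 55.1 CPM in the WT libraries against 72.1, 69.7 and 61.6 CPM in the KO libraries. It lies on chromosome 6. Its groups did not overlap, but its log2 fold change of 0.24 had an adjusted p of 0.131, against 0.081 with the replicate block and 0.0949 without KO replicate 3, in a range from 0.081 to 0.364. None of the 4 feedback targets and of the 2 noncoding ones was called in the main fit, against 24.3% of all genes tested. In each of these lists 1 gene had an unadjusted p below 0.05. With the block, Cop1 among the feedback targets was lower (adjusted p = 0.0572), and the noncoding Pvt1 (0.0835) and the repair target Ercc5 (0.0942) were higher, in ranges up to 0.308, 0.399 and 0.578. Cop1 was also called with library totals alone (0.0699) and without WT replicate 1 (0.0591), and Pvt1 without KO replicate 2 (0.0809).

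**Figure D4:**
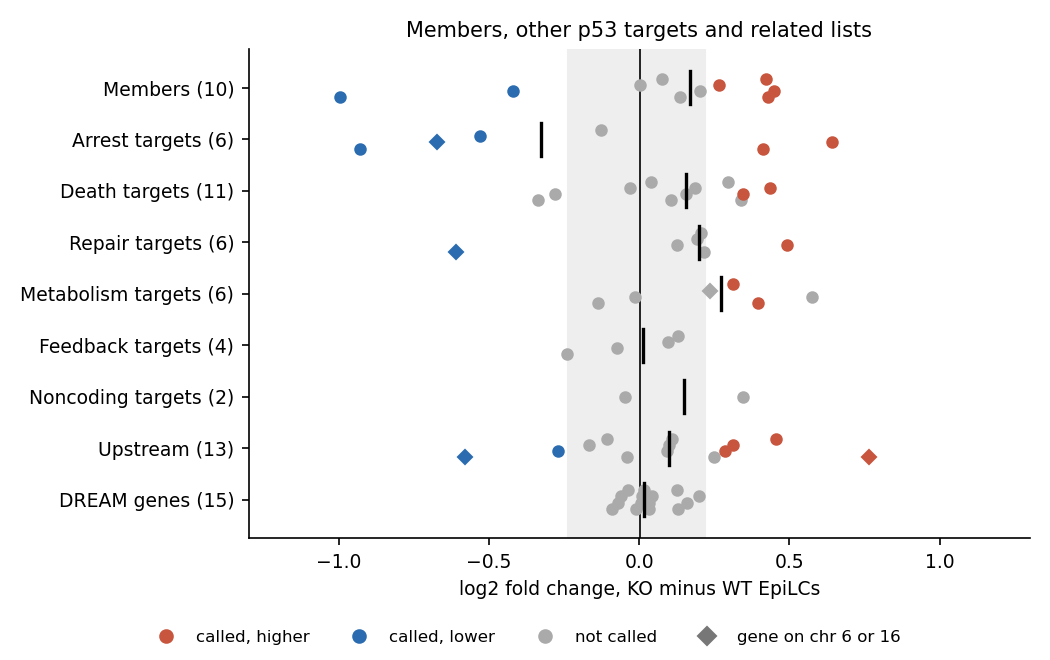
Log2 fold change, KO minus WT (horizontal axis), of each tested gene of the members and of the other lists, with the number of genes after the list's name, a black bar at the list's median, diamonds for genes on chromosome 6 or 16, and a grey band for the middle 50% of all genes around their median of 0.00. The arrest targets spread the widest among the lists of targets, from −0.93 to 0.64, and the DREAM genes lie between −0.09 and 0.20.

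Upstream of p53, 6 of 13 regulators were called (46.2%), 4 higher and 2 lower, against 24.3% of all genes tested, and 2 of the 6, Usp7 and Hipk2, lie on the shifted chromosomes 16 and 6. The replicate block added Atm as higher (adjusted p = 0.0503, in a range up to 0.552), which made 7, against 30.3% of all genes in that fit. Atm was also called without WT replicate 3 (0.0928). The count of regulators called fell to 4 with DESeq2, all of them higher. DESeq2 called 10.7% of 30691 genes, a set not cut to the 15746 genes that passed the filter on low counts. That share is therefore not a like background for the 4 regulators, and no excess is read from it. With library totals alone the count of regulators was also 4, 2 higher and 2 lower, against 23.9% of all genes. At an adjusted p below 0.05 the count was 2, against 19% of all genes. It was 3 on leaving out replicate 1 or 2 of WT, or 1 or 3 of KO, where 18.9% to 20.7% of all genes were called. The deubiquitinase gene Usp7, which stabilises Mdm2 and p53, had 668, 671 and 682 CPM in the WT libraries against 1176, 1142 and 1118 CPM in the KO libraries, without overlap and with little spread within groups. The change was 0.77 on the log2 scale (standard error 0.090, with an adjusted p of 9.61e-06). Usp7 lies on chromosome 16 and differed by 0.22 from the median there, 0.55. The part of the chromosome in this change was not tested. The checkpoint kinase gene Chek2 had 68.1, 84.5 and 76.0 CPM in the WT libraries against 102, 102 and 109 CPM in the KO libraries. It did not overlap between groups, with a log2 fold change of 0.45 (adjusted p = 0.00370), and was called under all 13 alternatives. The kinase gene Hipk2, on chromosome 6, was lower at −0.58 (adjusted p = 0.0729), and not called by DESeq2 (0.128) or without WT replicate 1 (0.220) or KO replicate 1 (0.275), in a range from 0.0393 to 0.275.

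The other called regulators rested on smaller differences. The damage kinase gene Atr and the damage mediator gene Trp53bp1 were higher by 0.31 and 0.29 on the log2 scale (adjusted p = 0.0818 and 0.0885), and the acetyltransferase gene Kat5 was lower at −0.27 (adjusted p = 0.0903). Kat5 shares 653 of its 3711 exon bases with Rnaseh2c, and Trp53bp1 2571 of 14360 with Tubgcp4, both on the opposite strand. The calls of Atr, Trp53bp1 and Kat5 were lost under 6, 5 and 7 of the 13 alternatives, with adjusted p up to 0.313, 0.454 and 0.311 and log2 fold changes from 0.19 to 0.49, from 0.16 to 0.36 and from −0.36 to −0.22. Cdkn2a, a gene that encodes both Arf, which blocks Mdm2, and the kinase inhibitor p16, products that counts per gene do not separate, had 18.2, 16.3 and 16.6 CPM in the WT libraries against 15.0, 15.5 and 17.1 CPM in the KO libraries. These groups overlapped, and the adjusted p was 0.680.

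Of the p53 family, Trp63 did not pass the filter on low counts, with at most 0.827 CPM in a library. Trp73 had 15.8, 7.48 and 10.6 CPM in the WT libraries against 18.6, 15.2 and 18.4 CPM in the KO libraries. WT replicate 1 lay within the KO range, and the log2 fold change was 0.61 (adjusted p = 0.0419). The call was lost on leaving out WT replicate 2 (0.40, 0.192) or 3 (0.56, 0.121), or KO replicate 1 (0.56, 0.128) or 3 (0.57, 0.131), and the value reached 0.93 without WT replicate 1 (0.00187, the lowest of a range up to 0.192).

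Cell cycle genes that p21 lowers through the DREAM repressor complex are a readout downstream of Cdkn1a. None of the 15 genes of that list was called by edgeR's test, against 24.3% of all genes tested. None had an unadjusted p below 0.05, against 4686 of all 15746 genes tested. DESeq2 called 0 as well, whereas Mki67 was called with the replicate block (adjusted p = 0.0615) and without WT replicate 3 (0.0943), in a range from 0.0615 to 0.830. The block called 30.3% of all genes, and the fit without WT replicate 3 called 23.4%. The median log2 fold change of the 15 genes was 0.02, and they ran from −0.09 for Ccnb2 to 0.20 for Mki67. As an example, Ccna2 had 440, 452 and 432 CPM in the WT libraries against 410, 439 and 422 CPM in the KO libraries. Its groups overlapped, as for 13 of the 15 genes, against 10445 of all 15746 genes tested. Ccna2 shares 714 exon bases with Exosc9 on the opposite strand. In Cdk1 and Ccnb1 each KO library lay above each WT library, as for 16.6% of all genes. The lower level of Cdkn1a in KO EpiLCs stood beside levels of these genes whose differences were small, and a p that misses the threshold does not show that they are equal.

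The genes whose log2 CPM over the 6 libraries was most like that of Cdkn1a, among 9859 genes with an average log2 CPM of at least 3, were Mboat7, Mus81 and Ggcx, with Pearson correlations of 0.998, 0.997 and 0.996. The 6 points fall into the WT and KO groups, so the likeness is a description of that split together with the order within groups. Their log2 fold changes were −0.76, −0.94 and −0.60, the last on chromosome 6, where the median was −0.40.

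Markers of cell types other than epiblast were counted as well, and some moved with genotype. The summed level of 6 primitive endoderm markers was 8.06, 6.11 and 7.03 CPM in the WT libraries against 13.7, 6.17 and 17.6 CPM in the KO libraries. Of the 4 markers that were tested, 2 were called higher, 1 at an adjusted p of 0.0991, against 11.8% of all genes tested. Dab2 was the most abundant of the 6 markers per length over the 6 libraries, at 1.54 to 4.81 CPM, but in KO EpiLCs alone Gata6 stood above it, with 0.381 against 0.299 CPM per kb. Gata6, named after its values were seen, was 1.34, 1.73 and 1.08 CPM in the WT libraries and 3.56, 2.01 and 4.96 CPM in the KO libraries (adjusted p = 0.0121), and was not called without KO replicate 3 (0.113, in a range from 0.00122 to 0.113). The sum of 4 mesendoderm markers was 6.49, 6.30 and 5.95 CPM in the WT libraries against 10.9, 8.64 and 11.7 CPM in the KO libraries. Nearly all of it came from Eomes, with 5.07 to 5.82 CPM in WT and 8.25 to 11.3 CPM in KO. Eomes was the 1 marker of the 4 that was tested, and it was called higher. The 3 others, with means below 1 CPM, were not tested, and their means were lower in KO. The primitive endoderm sums overlapped between the groups and the mesendoderm sums did not.

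The sum of 4 neural markers was lower in KO, at 39.7, 39.9 and 31.6 CPM in the WT libraries against 22.6, 22.4 and 24.2 CPM in the KO libraries, most of it from Tubb3 with 35.0, 35.6 and 27.6 CPM and 21.4, 19.8 and 23.0 CPM. Among these markers Sox1 fell from 4.10, 3.56 and 3.31 CPM to 0.405, 2.24 and 0.527 CPM (log2 fold change −1.78, adjusted p = 0.00733, from −2.94 without KO replicate 2 to −1.41 without KO replicate 1), a gene named after its values were seen. The 5 fibroblast markers, of which Thy1 was the most abundant per length, summed to 7.21 to 9.55 CPM in WT and 4.78 to 5.43 CPM in KO, and the 4 trophoblast markers, led by Krt7, to 6.27 to 8.21 CPM and 3.23 to 4.13 CPM. No marker was at 0 in every library, but Sox7, Mixl1, Gsc, Neurog2, Col1a1, Postn, Cdx2, Elf5 and Gata3 were at 0 in at least 1 library. Mitochondrial genes took from 0.445% to 0.573% of the counts of a library, with overlap between the groups. The part of these cell types in the levels of the members was not tested.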

How the data were processed

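Total RNA of 3 WT and 3 KO cultures was sequenced in pairs of reads from stranded libraries. After FastQC and trimming by Fastp, the authors aligned the reads to GRCm39 using STAR (2-pass) and deposited raw counts per gene, 1 column per library, without normalization. Versions, annotation release, use of the strand and treatment of reads with several matches are not given in the sources used here. Identifiers were matched to GENCODE M39 (54749 found, 667 not; of 76 with a shared symbol, the symbol stayed with the identifier of most counts). The members and lists were chosen with earlier results of these data known.

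Groups were compared with edgeR 4.0.16 under R 4.3.3: TMM, filterByExpr (minimum count 10), quasi-likelihood test with genotype as the only term, Benjamini-Hochberg adjustment over the 15746 genes tested, and called at an adjusted p below 0.1. Standard errors came from the F statistic and 95% intervals from the test's degrees of freedom. The scripts were tested on simulated data. Level per kb used merged annotated exons. Genes named are the members, genes of the target, upstream, family and DREAM lists with an adjusted p below 0.1 (in a list with more than 8, the 4 largest in each direction), the most abundant marker of a list and the 3 genes most like Cdkn1a. Apaf1, Sesn1 and Sesn2, markers at 0, Gata6, Sox1, Otx2, Fgf5, Sox2, and genes that were not called and are not members, were named after their values were seen.

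The series text calls the replicates paired. Deviations from the group means over 11454 genes had correlations of 0.277, 0.355 and 0.124 between libraries with the same number and from −0.264 to −0.022 otherwise. Such deviations cancel out within a group, so the positive and the negative values depend on each other. The main fit leaves the pairing out. The replicate block gave the lowest adjusted p of Mdm2 (0.000133), Mdm4 (0.000279), Trp53inp1 (0.000219), Ccng1 (0.0114) and Btg2 (0.00137) over the alternatives. Libraries of a group differed by more than sampling noise (chi-square per degree of freedom from 6.94 to 11.8). The alternatives were DESeq2 1.42.0, RLE factors, library totals alone, TMM without chromosomes 6 and 16, a replicate block, no filter on low counts, a minimum of 10 counts in all libraries, the omission of each library in turn (13 in all) and, for counts of calls, a threshold of 0.05.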

Additional observations from a re-analysis of the deposited data

How the results depend on the processing

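The count of genes called, 3833, ran from 2989 to 4764 over the alternatives, and the direction of the 6 called members held in each. Cdkn1a and Mdm2 were called in all of them. With the replicate block 6 members were called, 4 higher and 2 lower, and 18 other p53 targets, 11 higher and 7 lower, in place of 11, 7 and 4. Among the other genes named, the block brought calls of Tigar, Mki67, Pidd1, Perp, Tnfrsf10b, Ercc5, Cop1, Pvt1, Atm and Pou5f1 (−0.19, adjusted p = 0.0665), all of which but Ercc5 were also called under 1 or 2 of the other alternatives. Leaving out 1 library gave 3 to 6 members called, 1 to 5 higher and 1 to 2 lower, and 7 to 12 other targets, 3 to 8 higher and 4 to 5 lower, with the lowest totals without KO replicate 1. The sign of some values that were not called turned: Phlda3 was −0.022 with library totals alone, −0.004 without a filter and −0.112 to 0.066 on leaving out 1 library, where Bbc3 ran from −0.17 to 0.10, Pmaip1 from −0.046 to 0.17, Cdkn2c from −0.047 to 0.78 and Dab2 from −0.064 to 0.66. The cause was not tested. The median log2 fold change of all genes stayed between −0.02 and 0.01 under every alternative. With 3 libraries a group, the 95% interval of Aen, the narrowest among the members, still ran from −0.12 to 0.28.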

Other observations

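Other inhibitors of cyclin-dependent kinases, chosen after the values of Cdkn1a were seen, were looked up in the same edgeR fit. Cdkn1c, which encodes p57, had 104, 104 and 85.3 CPM in WT against 63.1, 55.3 and 48.2 CPM in KO, without overlap (log2 fold change −0.82, adjusted p = 6.92e-05). Cdkn2b, the gene of p15, had 26.8, 27.2 and 21.8 CPM in WT and 16.8, 15.7 and 19.3 CPM in KO (−0.55, adjusted p = 0.01), also without overlap. Cdkn1b, the gene of p27 on chromosome 6, had 56.0, 63.3 and 63.4 CPM in WT and 46.8, 45.7 and 50.3 CPM in KO (−0.36, adjusted p = 0.0224), on a chromosome whose median was −0.40. Cdkn2a (p16 and Arf together), Cdkn2c and Cdkn2d were not called, with adjusted p of 0.680, 0.692 and 0.521. Of the 6 genes 3 were lower, 1 of them on chromosome 6, against 12.5% of all genes tested.

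Within 500 kb of Cdkn1a on chromosome 17, 19 other genes were tested, of which 2 were higher and 3 lower. For comparison, 11.8% of all 15746 genes were called higher and 12.5% lower. The log2 fold changes of the 19 neighbours had a median of −0.07. Over all genes in quartiles of exon length, the median log2 fold change was −0.01, −0.02, 0.00 and 0.02 from the shortest to the longest quartile, and the share called higher was 8.82%, 10.5%, 12.8% and 15.2%, and the share called lower 9.89%, 13.9%, 13.3% and 13.1%.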
